A study of Homo sapiens with 8 samples.

Results

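The 9 genes described here form the entry step of death receptor signalling: the ligand TRAIL (TNFSF10), its receptors TNFRSF10A, TNFRSF10B, TNFRSF10C and TNFRSF10D, the receptor FAS, the adaptor FADD, the initiator protease CASP8 and its regulator CFLAR. They were chosen by name for their place in this pathway, with earlier results of these data known. All 9 were found by symbol among the 23393 genes of the count table. RNA-seq was analysed for 8 libraries of MDA-MB-231, an established human breast cancer cell line, in 4 groups of 2 libraries each. The groups were parental cells in full medium (parental control), parental cells starved of arginine for 48 h (parental starved), and ρ0 cells in full medium or starved for 48 h (ρ0 control and ρ0 starved). ρ0 cells are depleted of mitochondrial DNA by ethidium bromide, and those sequenced were a single clone, number 27, so that the loss of mitochondrial DNA and the history of the clone cannot be told apart. For the starved groups the labels give arginine deiminase, an enzyme that degrades arginine, at 0.3 µg/mL, whereas the methods describe medium without arginine. The labels give 1 medium for all cells, DMEM with serum, whereas the methods list pyruvate, uridine and ethidium bromide for the ρ0 line only, and these additions cannot be told apart from the line either. Nothing states that the 2 libraries of a group came from separate cultures, so p-values measure the spread between these libraries, which may be technical.

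TRAIL is a ligand of the tumour necrosis factor family that can trigger apoptosis in many tumour cells. TNFRSF10A (DR4), TNFRSF10B (DR5) and FAS carry a cytoplasmic death domain, through which the bound receptor recruits FADD and then procaspase 8, and active caspase 8 cleaves executioner caspases and BID. TNFRSF10C (DcR1) and TNFRSF10D (DcR2) bind TRAIL without a functional death domain and are known as decoy receptors, and CFLAR encodes c-FLIP, a relative of caspase 8 that lacks its protease activity and controls its activation at the receptor. TNFRSF10B is also known as a gene induced by stress of the endoplasmic reticulum.

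Bases upstream of the gene start are shown for the ligand, whose mRNA differed most between the lines, and for the adaptor, whose mRNA fell in both lines on starvation. Both are the 250 bases before the start in RefSeq (GRCh38.p14), written 5′ to 3′ on the gene's own strand, and 5 of the 9 genes had such a window. In the window of TNFSF10, at chr3:172523431-172523680 on the minus strand, the capitals mark the reverse complement of a core of the interferon-stimulated response element (GAAA repeated after a gap of 2 bases), 187 to 178 bases before the start. In the window of FADD, at chr11:70203046-70203295 on the plus strand, the capitals mark 2 GC boxes (GGGCGG on either strand), 209 to 204 and 77 to 72 bases before the start.
TNFSF10: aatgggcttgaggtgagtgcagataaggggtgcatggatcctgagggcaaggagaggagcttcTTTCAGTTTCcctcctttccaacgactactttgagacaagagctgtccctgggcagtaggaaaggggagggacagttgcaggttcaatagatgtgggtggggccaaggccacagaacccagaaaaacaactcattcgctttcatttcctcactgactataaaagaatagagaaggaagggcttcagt
FADD: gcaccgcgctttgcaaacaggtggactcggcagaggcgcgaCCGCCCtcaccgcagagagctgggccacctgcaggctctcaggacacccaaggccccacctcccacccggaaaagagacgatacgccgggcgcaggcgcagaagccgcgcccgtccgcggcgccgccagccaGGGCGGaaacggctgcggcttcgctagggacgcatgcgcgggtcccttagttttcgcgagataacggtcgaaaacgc
The first motif was present in 3.02% and the GC box in 42.6% of 35116 such windows of all genes, on either strand. The other motifs searched on both strands were TTCNNNGAA (the STAT site), TGACTCA (the AP-1 site), TGATGNAA (a core of the amino acid response element) and CCAAT, present in 6.57%, 4.20%, 3.14% and 32.0% of the windows, and none of them was in the 2 windows shown. A match is a run of letters and was not tested as a binding site.

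The libraries held between 25259503 and 31022155 counts, and 15262 genes passed the expression filter and were tested. Levels are given as CPM, which are counts divided by the TMM-scaled library size, and each comparison is a contrast of edgeR's quasi-likelihood test over all 8 libraries, with p-values adjusted over all tested genes. An adjusted p under 0.05 made a gene a call, and a call with a log2 fold change above 1 or below -1 was also a DEG. The 2 ρ0 control libraries stood apart, with 25.1% between them in biological coefficient of variation, against 5.16% for parental control, 2.29% for parental starved and 1.84% for ρ0 starved cells. Calls that use the ρ0 control group are therefore also given without each of its libraries. All 8 genes listed as typical of MDA-MB-231, among them VIM, CD44 and AXL, were detected in every library, and their summed level was 4001 to 4070 CPM in parental control, 2465 to 2473 in parental starved, 7142 to 8112 in ρ0 control and 5438 to 5598 in ρ0 starved cells. Of 7 genes listed as low in this line, the hormone receptors ESR1 and PGR had at most 6 counts and 1 count. The epithelial cadherin CDH1 had 0.0300, 0.035, 15 and 4.54 CPM in parental control, parental starved, ρ0 control and ρ0 starved cells. ASS1, an enzyme of arginine synthesis, had 0.202, 0.055, 8.93 and 22.7 CPM in these groups. Both were higher in ρ0 than in parental cells. FOXA1 went the other way, with 7.36, 9.58, 0.0334 and 0.0883 CPM in parental control, parental starved, ρ0 control and ρ0 starved cells. In the same order GATA3 had 4.52, 5.18, 16.5 and 10.45 CPM. ERBB2 was the highest of the 7, at 58.6, 30.3, 86.9 and 60.4 CPM. The 4 leukocyte genes reached at most 3.43 CPM in sum, with CD3E at 0 in every library, and the 3 endothelial genes at most 5.66. The 3 fibroblast genes summed to 6.50 and 17.1 CPM in the 2 ρ0 control libraries and to at most 4.24 in any other, with DCN at 2 counts or fewer throughout. The part of these shifts in the results below was not tested. In bulk RNA, more RNA per cell and more cells with the RNA cannot be told apart.

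**Figure D1:**
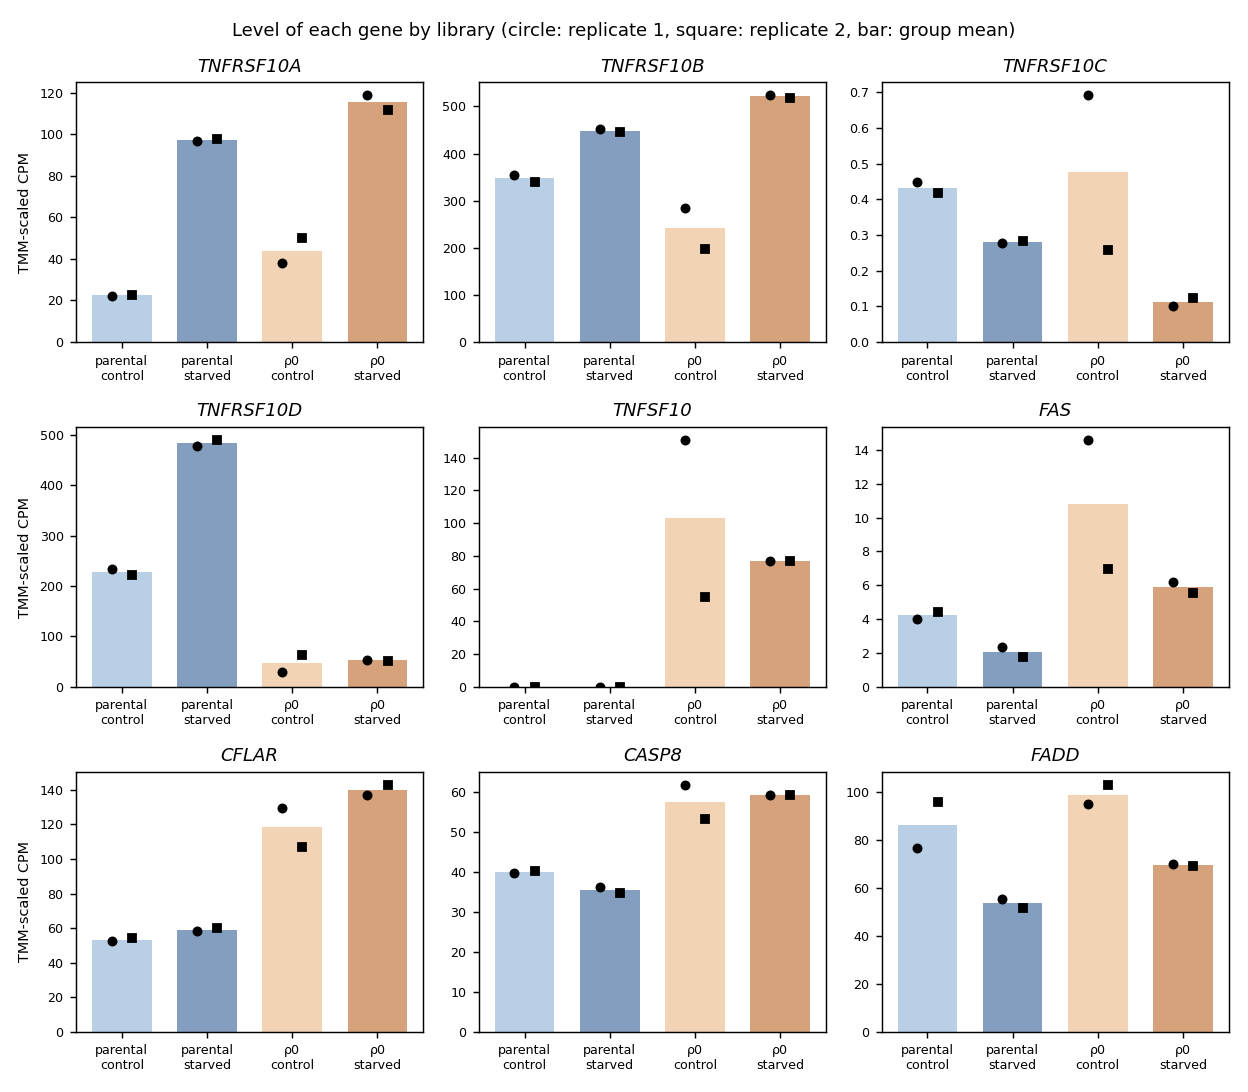
TMM-scaled CPM of the 9 genes in each library, 1 panel per gene with its own axis from 0, for parental and ρ0 cells in control medium and after 48 h of arginine starvation. Circles and squares are replicates 1 and 2 and bars are group means. The ρ0 control pair is widely spaced for TNFRSF10B, TNFRSF10D, TNFSF10 and FAS, and TNFSF10 is near 0 in the 4 parental libraries.

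TNFSF10, the ligand, was present in ρ0 cells and at or under the floor of 3 counts in every parental library. The parental control libraries held 0 and 3 counts and the parental starved libraries 1 and 0. The ρ0 control libraries held 4352 and 1707 counts (151 and 54.9 CPM), and the ρ0 starved libraries 2267 and 1856 (76.6 and 76.9 CPM). All 4 ρ0 libraries thus lay far above all 4 parental ones, and the ρ0 control libraries lay on either side of the ρ0 starved pair. Taken as summed counts per scaled library size, the level in ρ0 cells was 2095 times the parental one in control medium (6059 against 3 counts, 95% interval 716 to 10160) and 4102 times in starved medium (4123 counts against 1, 736 to 162100). These exact binomial intervals cover counting error only. TNFSF10 passed the expression filter through the ρ0 libraries alone and had to differ between the lines once it did, so no p-value is given for that difference. Between starved and control ρ0 cells the log2 fold change was -0.42 (95% interval -1.38 to 0.53, adjusted p = 0.444), and its sign rested on which ρ0 control library was kept: it was 0.48 without replicate 1 and -0.98 without replicate 2. No fold is given for starvation in parental cells, where both groups were at the floor.

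TNFRSF10A, a signalling receptor of TRAIL, rose on starvation in both lines. Parental control libraries had 22.3 and 22.7 CPM and parental starved libraries 97.0 and 97.8 CPM. In ρ0 cells the levels were 37.8 and 50.1 CPM in control and 119 and 112 CPM in starved libraries. The starved libraries were above the control libraries in each line without overlap, and the 2 starved groups lay close together from different starting levels. The log2 fold change was 2.11 in parental cells (SE 0.134, adjusted p = 1.65e-05) and 1.39 in ρ0 cells (SE 0.130, adjusted p = 0.000314). The rise was smaller in ρ0 cells by 0.72 on the log2 scale (SE 0.182, adjusted p = 0.0177 for the difference). In control medium TNFRSF10A was higher in ρ0 than in parental cells, with a log2 difference of 0.97 (SE 0.131, adjusted p = 5e-04) that was 1.16 without ρ0 control replicate 1 and 0.75 without replicate 2, and in starved cells the difference was 0.25 (95% interval -0.05 to 0.54, adjusted p = 0.123). Without ρ0 control replicate 1 or 2 the rise in ρ0 cells was 1.21 or 1.61, and the difference between the rises was -0.91 or -0.50. Leaving out any other library put the adjusted p of that difference between 0.0561 and 0.0758. The ρ0 control libraries do not enter that starved comparison. Without either of them the difference stayed at 0.25 and passed the test only through a smaller estimate of the spread.

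TNFRSF10B, the other signalling receptor of TRAIL, rose on starvation in ρ0 cells. The ρ0 control libraries had 285 and 197 CPM and the ρ0 starved libraries 525 and 518 CPM, a log2 fold change of 1.11 (SE 0.157, adjusted p = 0.00152). Parental libraries had 355 and 341 CPM in control and 451 and 445 CPM in starved medium. The parental starved pair was above the control pair without overlap, but the log2 change of 0.37 missed the threshold (SE 0.155, 95% interval 0.00 to 0.73, adjusted p = 0.0702). That value depended on the shared estimate of the spread: fitted to the parental libraries alone the adjusted p was 9.05e-07, and without ρ0 control replicate 1 or 2 it was 5.13e-08 or 5.23e-08, at 0.37 each time. The response was larger in ρ0 cells by 0.75 (SE 0.219, adjusted p = 0.0306 for the difference), which was 1.04 without ρ0 control replicate 1, 0.50 without replicate 2, and had an adjusted p of 0.0824 to 0.101 without any of the other 6 libraries. In control medium ρ0 cells had less TNFRSF10B than parental cells, by a log2 difference of -0.53 (SE 0.155, adjusted p = 0.0193), and this was -0.82 without ρ0 control replicate 1 and -0.29 without replicate 2. It missed the threshold without either parental control library (adjusted p = 0.0943 and 0.0676). In starved medium the difference between the lines was 0.22 (95% interval -0.14 to 0.58, adjusted p = 0.245). Without ρ0 control replicate 1 or 2 the same 0.22 passed the test only through a smaller estimate of the spread. For both signalling receptors the control levels of the lines differed and the starved levels were within about 0.25 of each other on the log2 scale.

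TNFRSF10D, a decoy receptor with a truncated death domain, differed between the lines more than any other receptor among the 9 genes. Parental control libraries had 234 and 223 CPM and parental starved libraries 478 and 491 CPM, against 30.4 and 63.1 CPM in ρ0 control and 53.3 and 51.7 CPM in ρ0 starved libraries. Every ρ0 library was below every parental library. The log2 difference between ρ0 and parental cells was -2.29 in control medium (SE 0.289, adjusted p = 0.000342) and -3.21 after starvation (SE 0.299, adjusted p = 6.54e-05). Without ρ0 control replicate 1 or 2 the first value was -1.86 or -2.91. Starvation raised TNFRSF10D in parental cells, by a log2 fold change of 1.08 (SE 0.276, adjusted p = 0.00971), which missed the threshold without parental control replicate 1 or 2 (adjusted p = 0.0551 and 0.0667). In ρ0 cells the groups overlapped and the change was 0.17 (95% interval -0.49 to 0.82, adjusted p = 0.669). This value turned from -0.26 without ρ0 control replicate 1 to 0.79 without replicate 2. The difference between the responses of the lines was -0.92 (SE 0.392, adjusted p = 0.101). It was -1.35 without ρ0 control replicate 1 and -0.29 without replicate 2.

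TNFRSF10C, the decoy receptor anchored by a lipid tail, had few reads. The counts were 15 and 12 in parental control, 7 and 8 in parental starved, 20 and 8 in ρ0 control, and 3 and 3 in ρ0 starved libraries. The ρ0 starved libraries were at the floor of 3 counts and below all others. Summed per scaled library size, ρ0 control cells had 4.19 times the level of ρ0 starved cells (28 against 6 counts, 95% interval 1.70 to 12.4, counting error only). The fitted log2 change on starvation, which depends on the prior count here, was -2.03 in ρ0 cells (SE 0.612, adjusted p = 0.0326) and -0.62 in parental cells (adjusted p = 0.318). The first value was -1.17 without ρ0 control replicate 1 and -2.59 without replicate 2, and leaving out any library other than ρ0 control replicate 2 put its adjusted p between 0.0568 and 0.165. DESeq2 gave an adjusted p of 0.0806. A gene this scarce can pass the expression filter through its control libraries alone, so its p-value is no support for a fall. In GENCODE v29, 28.2% and 14.5% of its exonic bases overlap 2 other annotated genes on the same strand, and the counting method behind the table is not given in the sources used here.

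FAS was the least abundant death domain receptor of the 3. It had 4.02 and 4.45 CPM in parental control, 2.34 and 1.74 in parental starved, 14.6 and 6.98 in ρ0 control, and 6.19 and 5.55 in ρ0 starved libraries. Starved libraries were below control libraries in each line, and all ρ0 libraries were above all parental ones. FAS fell in parental cells, with a log2 fold change of -1.06 (SE 0.367, adjusted p = 0.0354). That call rested on few counts, from 49 to 134 per parental library, and was lost without any of the parental or ρ0 starved libraries (adjusted p = 0.0542 to 0.175). In ρ0 cells the change was -0.87 (SE 0.327, adjusted p = 0.0669), with -0.24 without ρ0 control replicate 1 and -1.31 without replicate 2. The responses of the lines differed by 0.18 (95% interval -0.96 to 1.33, adjusted p = 0.799), by 0.82 without ρ0 control replicate 1 and by -0.25 without replicate 2. Relative to parental cells FAS was higher in ρ0 cells by 1.35 in control medium (SE 0.332, adjusted p = 0.00897) and by 1.53 after starvation (SE 0.365, adjusted p = 0.00708). The control value was 0.72 without ρ0 control replicate 1 and 1.79 without replicate 2, and missed the threshold without parental control replicate 1 (1.28, adjusted p = 0.0672). The starved value missed it without parental starved replicate 2 (1.33, adjusted p = 0.0557). FASLG, which encodes its ligand, had at most 1 count in any library.

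FADD, the adaptor, fell on starvation in both lines. It had 76.7 and 95.7 CPM in parental control and 55.4 and 51.6 in parental starved libraries, and 94.8 and 103 CPM in ρ0 control and 70.0 and 69.1 in ρ0 starved libraries. The starved pair was below the control pair in each line. The log2 fold change was -0.69 in parental cells (SE 0.116, adjusted p = 0.00134) and -0.51 in ρ0 cells (SE 0.115, adjusted p = 0.0108), and the latter missed the threshold without ρ0 starved replicate 1 or 2 (adjusted p = 0.0702 and 0.0766). Their difference was 0.18 (95% interval -0.20 to 0.56, adjusted p = 0.417). Without ρ0 control replicate 1 or 2 the fall in ρ0 cells was -0.57 or -0.45. Between the lines FADD was higher in ρ0 cells after starvation, by 0.38 (SE 0.116, adjusted p = 0.0219), a call that was lost without any of the 4 starved libraries (adjusted p = 0.0608 to 0.129). In control medium the difference was 0.20 (95% interval -0.07 to 0.47, adjusted p = 0.168). It was 0.26 without ρ0 control replicate 1 and 0.37 without parental control replicate 2. In GENCODE v29, 53.0% of the exonic bases of FADD overlap AP000879.1 on the opposite strand, and without a stated strand setting reads of the 2 genes cannot be told apart.

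CASP8 and its regulator CFLAR differed between the lines and changed little on starvation. CASP8 had 39.8 and 40.2 CPM in parental control, 36.3 and 34.7 in parental starved, 61.9 and 53.3 in ρ0 control and 59.2 and 59.2 in ρ0 starved libraries. CFLAR had 52.4 and 54.4, 58.1 and 60.3, 130 and 107, and 137 and 143 CPM in the same order of groups. For both genes every ρ0 library was above every parental library. The log2 difference of CASP8 was 0.53 in control medium (SE 0.0948, adjusted p = 0.00204) and 0.74 after starvation (SE 0.0955, adjusted p = 0.000335). For CFLAR it was 1.15 (SE 0.103, adjusted p = 6.18e-05) and 1.24 (SE 0.103, adjusted p = 3.6e-05). All 4 calls held without any 1 library, with a log2 range of 0.42 to 0.63 and 0.71 to 0.77 for CASP8, and 1.01 to 1.28 and 1.21 to 1.27 for CFLAR, in control and starved medium.

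On starvation CASP8 changed by -0.17 in parental cells (95% interval -0.39 to 0.05, adjusted p = 0.151) and by 0.04 in ρ0 cells (-0.18 to 0.26, adjusted p = 0.761). CFLAR changed by 0.15 (-0.09 to 0.39, adjusted p = 0.233) and by 0.24 (0.01 to 0.48, adjusted p = 0.0895). With total counts as scaling, CFLAR in parental cells was at -0.0129 and CASP8 in ρ0 cells at -0.0354. These intervals leave out a change of 1 log2 unit in either direction for both genes in both lines. Without either ρ0 control library the parental changes of both genes, at the same size, passed the test only through a smaller estimate of the spread. In ρ0 cells CFLAR was at 0.39 and CASP8 at 0.15 without ρ0 control replicate 1, whereas without replicate 2 CFLAR was at 0.11 and CASP8 at -0.06. The responses of the lines differed by 0.21 for CASP8 (adjusted p = 0.245) and by 0.10 for CFLAR (adjusted p = 0.628), and without ρ0 control replicate 1 by 0.32 and 0.24.

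**Figure D2:**
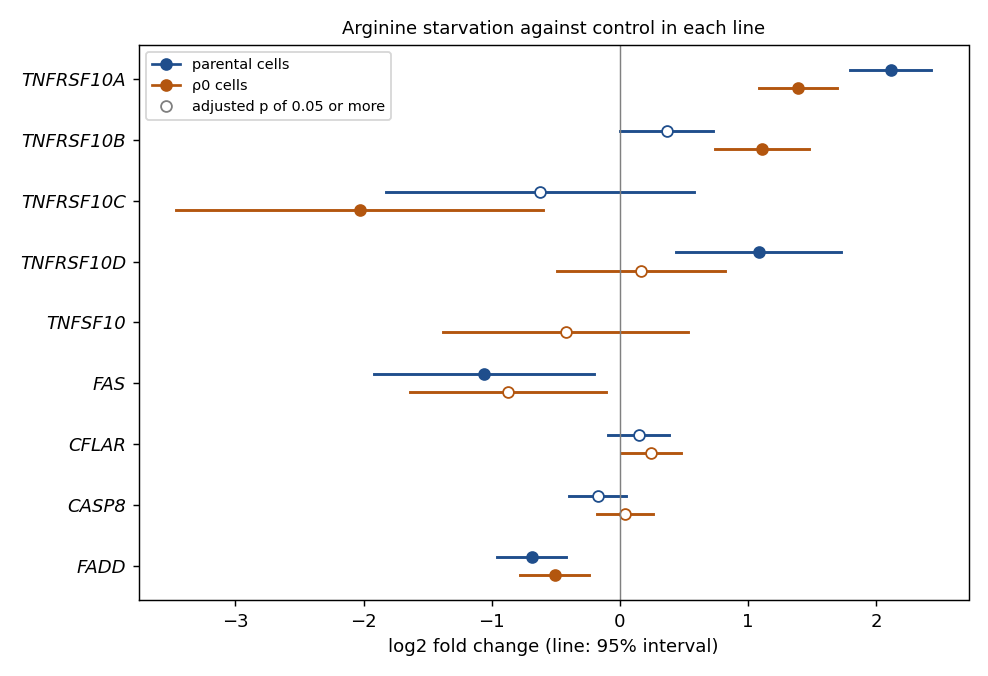
Log2 fold change on arginine starvation over control, with 95% intervals of the edgeR fit, for parental and for ρ0 cells. Filled points have an adjusted p under 0.05. TNFRSF10A and FADD are filled in both lines, TNFRSF10D and FAS in parental cells, and TNFRSF10B and TNFRSF10C in ρ0 cells, and no parental value is drawn for TNFSF10, which was at the floor. The ρ0 value of TNFRSF10C is a fitted one against libraries at the floor.

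Counted over the 9 genes, starvation of parental cells raised 2 (TNFRSF10A and TNFRSF10D) and lowered 2 (FAS and FADD), while 5 did not pass. Over all tested genes 30.4% were called higher and 35.5% lower. By the DEG criterion 3 of the 9 passed, against 34.9% of all tested genes. In ρ0 cells starvation raised 2 (TNFRSF10A and TNFRSF10B) and lowered 2 (FADD, and TNFRSF10C with the starved libraries at the floor), where 19.2% of tested genes were called higher and 22.1% lower, and 3 were DEGs, against 12.4%. The difference between the responses passed for TNFRSF10B, higher in ρ0 cells, and for TNFRSF10A, lower, against 21.6% and 18.8% of tested genes. The called shares of the 9 genes were near the background apart from the DEGs in ρ0 cells. TNFRSF10C is among those DEGs and among the genes called lower there, although its p-value is no support for a fall. Counts of so few genes are no result about the 9 genes as a group. The median log2 change of the 9 genes was -0.17 in parental cells and 0.04 in ρ0 cells, against -0.07 and -0.02 over all tested genes, and that of the difference was 0.18 against 0.02. Without TNFSF10, whose parental value is no measured change, these medians were -0.01, 0.10 and 0.14.

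**Figure D3:**
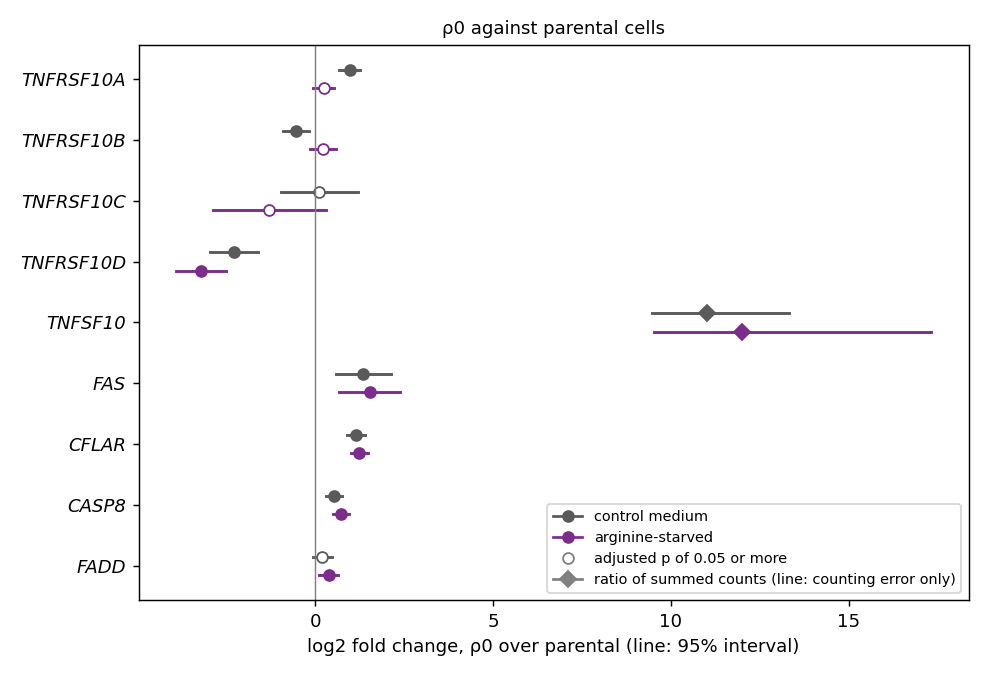
Log2 fold change of ρ0 over parental cells in control and in arginine-starved medium, with 95% intervals, and for TNFSF10 the log2 ratio of summed counts (diamonds at 11.03 and 12) with intervals of counting error only. TNFRSF10D lies to the left in both media and TNFSF10, FAS, CFLAR and CASP8 to the right in both.

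Between the lines 5 of the 9 genes were called higher in ρ0 control cells (TNFRSF10A, TNFSF10, FAS, CFLAR and CASP8) and 2 lower (TNFRSF10B and TNFRSF10D), where 30.5% and 31.8% of all tested genes were called. After starvation 5 were higher (TNFSF10, FAS, CFLAR, CASP8 and FADD) and 1 lower (TNFRSF10D), against 32.9% and 33.5%. DEGs were 4 of the 9 in either medium, against 30.9% and 35.5% of tested genes. TNFSF10 is among the genes counted as higher and as DEGs in both media, although its filter left it no other outcome. The medians of the 9 log2 differences were 0.53 and 0.38, or 0.36 and 0.31 without TNFSF10, against -0.01 and -0.01 over all tested genes. The comparisons between lines share libraries with those of starvation, and the values stand side by side for that reason.

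Levels of different genes can be set side by side only per length, and CPM per kilobase of the median coding transcript (GENCODE v29) is used here. TNFRSF10B had the highest level per kilobase of the 9 genes in every group, at 119, 153, 82.2 and 178 CPM per kilobase in parental control, parental starved, ρ0 control and ρ0 starved cells. TNFRSF10D came next in parental cells, at 64.6 and 137 CPM per kilobase, and was seventh of 9 in ρ0 cells, at 13.2 and 14.8. With the longest coding transcript as the length, TNFRSF10D was above TNFRSF10B in parental starved cells, at 137 against 108 CPM per kilobase, so the order of these neighbours depends on the length. TNFRSF10A moved from 12.2 to 52.8 CPM per kilobase in parental cells and from 23.8 to 62.5 in ρ0 cells. FAS stayed between 1.47 and 7.80 CPM per kilobase and TNFRSF10C at or below 0.28. TNFSF10 in ρ0 cells, at 57.6 and 43.0 CPM per kilobase, had a control range of 30.7 to 84.6 that overlapped those of FADD (51.5 to 56.0) and CFLAR (65.1 to 78.7). The 4 TRAIL receptors shared no stretch of 50 bases with each other in their annotated transcripts. With transcripts of other genes, on either strand, TNFRSF10A, TNFRSF10B, TNFRSF10C and TNFRSF10D shared 10.5%, 1.69%, 39.7% and 0.831% of their stretches. In TNFRSF10A, 8.25% of the exonic bases overlap TNFRSF10A-AS1 on the opposite strand.

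The balance of signalling and decoy receptors was taken within each library, where scaling between libraries plays no part. TNFRSF10A and TNFRSF10B together made up 66.7% and 67.0% of the summed level per length of the 4 TRAIL receptors in the parental control libraries, and 60.4% and 59.6% in the parental starved libraries. In ρ0 cells they made up 92.9% and 84.0% in control and 94.2% and 94.2% in starved libraries. The parental share was lower after starvation and every ρ0 share was above every parental one, while the ρ0 control pair differed by more than the step to the starved pair from its higher library. TNFRSF10B per TNFRSF10D stood at 1.83 and 1.84 in parental control, 1.14 and 1.10 in parental starved, 11.3 and 3.77 in ρ0 control and 11.9 and 12.1 in ρ0 starved libraries. These ratios are given as values and were not tested.

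CFLAR per CASP8, by the same lengths, was 1.52 and 1.57 in parental control, 1.85 and 2.01 in parental starved, 2.43 and 2.33 in ρ0 control and 2.68 and 2.80 in ρ0 starved libraries. The 4 pairs did not overlap: the ratio was higher in starved than in control libraries of each line, and higher in ρ0 than in parental libraries of each medium. Which of the 2 genes has more mRNA cannot be read from these counts, because the annotated coding transcripts of CFLAR run from 693 to 14672 bases and with the longest ones the group means lay between 0.267 and 0.473. The order of the groups is the same for any fixed length. CFLAR also encodes long and short forms of c-FLIP, which counts per gene do not separate.

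**Figure D4:**
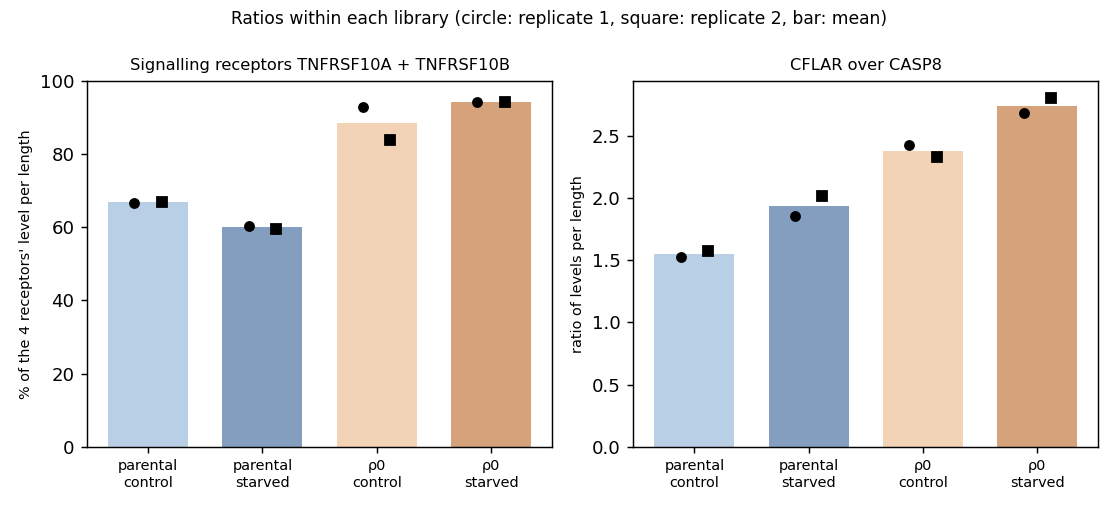
Left, the percentage of the summed TRAIL receptor level per length that belongs to TNFRSF10A and TNFRSF10B, from 0 to 100; right, the level of CFLAR per level of CASP8, from 0. Points are libraries and bars are group means: 66.9%, 60.0%, 88.4% and 94.2% on the left, and 1.55, 1.93, 2.38 and 2.74 on the right, for parental control, parental starved, ρ0 control and ρ0 starved cells.

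Around these 9 genes, 55 other genes of the pathway were counted in 5 lists, and 52 of them were tested (FASLG, TNFRSF6B and RIPK3 were not). The lists were also chosen with earlier results of these data known, so their counts beside the background are a description only. On starvation 24 of the 52 were called higher and 19 lower in parental cells, where 30.4% and 35.5% of all tested genes were, and 18 and 14 in ρ0 cells, against 19.2% and 22.1%. Over all tested genes the median log2 change was -0.07 in parental and -0.02 in ρ0 cells, and the lists were described by counts and medians without a test. Without ρ0 control replicate 1 or 2 the counts were 26 and 22 each time in parental cells (37.8% and 43.0% of all tested genes), and 25 and 16 or 22 and 16 in ρ0 cells (31.5% and 32.4%, or 30.8% and 32.6%). Without ρ0 starved replicate 1 or 2 those of ρ0 cells were 13 and 9 or 14 and 8 (9.95% and 11.2%, or 10.0% and 10.9%). Of 6 tested ligands, receptors and decoys, 1 was higher and 4 lower in parental cells (median log2 change -0.74), and 0 and 3 in ρ0 cells (median -0.08). TNFRSF11B, the secreted decoy osteoprotegerin that also binds TRAIL, fell by 1.51 on the log2 scale in parental (adjusted p = 0.000344) and by 0.84 in ρ0 cells (adjusted p = 0.00845). The cytokine TNF, at 18 counts or fewer, fell by 1.80 in parental cells (adjusted p = 0.0318) and LTA, which encodes lymphotoxin alpha, rose by 1.01 (adjusted p = 0.0356). TNF had 0.53, 0.15, 0.22 and 0.26 CPM in parental control, parental starved, ρ0 control and ρ0 starved cells. A gene this scarce can pass the expression filter through its highest group, here parental control, so its p-value is no support for a fall. In ρ0 cells TNFRSF21 (DR6) fell by 0.94 (adjusted p = 0.000712) and TNFRSF1A, the main TNF receptor, by 0.50 (adjusted p = 0.00433). Both also fell in parental cells, by 0.85 (adjusted p = 0.000394) and by 0.63 (adjusted p = 0.000667).

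Of 11 tested adaptors and kinases of the receptor complexes, 5 were higher and 4 lower in parental cells (median -0.21), and 3 and 2 in ρ0 cells (median 0.10). TRADD, the adaptor of the TNF receptor, fell from 11.8 to 3.38 CPM in parental cells, a log2 change of -1.81 (SE 0.153, adjusted p = 4.9e-05). MARCH8, a ubiquitin ligase of membrane proteins, changed by -1.21 (adjusted p = 0.000132) and MLKL, the effector of necroptosis, by -1.21 (adjusted p = 3.82e-05). In ρ0 cells TNFAIP3, the NF-κB feedback protein A20, rose by 1.05 (adjusted p = 0.00178) and TRAF1 by 0.65 (adjusted p = 0.00196), while MLKL fell by 0.75 (adjusted p = 0.00105). TRAF1 also rose in parental cells, by 0.38 (adjusted p = 0.0166). TRADD also changed in ρ0 cells, by -0.43 (adjusted p = 0.0429), or by -0.29 and -0.54 without ρ0 control replicate 1 and 2. The calls of these last 2 changes were lost when some single libraries were left out. Of 12 caspases and substrates, 4 were higher and 7 lower in parental cells (median -0.38, background 30.4% and 35.5%), and 2 and 4 in ρ0 cells (median -0.01, background 19.2% and 22.1%). CASP10, the closest relative of CASP8, changed by -2.04 in parental (SE 0.293, adjusted p = 0.000605) and by -0.79 in ρ0 cells (SE 0.256, adjusted p = 0.0411). CASP6, an executioner caspase, changed by -2.40 and -0.95 (adjusted p = 6.57e-05 and 0.00644), and CASP9, the initiator of the mitochondrial pathway, by -2.01 in parental cells (adjusted p = 4.4e-05). CASP2 changed by -1.09 in ρ0 cells (adjusted p = 0.000377) and by -0.34 in parental cells (adjusted p = 0.0288). The parental call was lost when some single libraries were left out.

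Of 10 caspase inhibitors and their antagonists, 5 were higher and 2 lower in parental cells (median 0.61, background 30.4% and 35.5%), and 4 and 2 in ρ0 cells (median 0.37, background 19.2% and 22.1%). BIRC3, the ubiquitin ligase cIAP2, moved in opposite directions: from 204 to 48.7 CPM in parental cells (log2 change -2.07, SE 0.0799, adjusted p = 6.6e-06) and from 366 to 636 CPM in ρ0 cells (0.80, SE 0.0763, adjusted p = 0.000346), a difference of 2.86 (adjusted p = 3.6e-05). BIRC5 (survivin), a gene of dividing cells, changed by -2.01 and -1.70 (adjusted p = 1.56e-05 and 0.00016). PEA15, a death effector domain protein that binds FADD, rose by 1.47 in parental cells (adjusted p = 1.47e-05). In ρ0 cells it rose by 0.43 (adjusted p = 0.00691), or by 0.34 and 0.52 without ρ0 control replicate 1 and 2. That call was lost without either ρ0 starved library. HTRA2, a mitochondrial protease that antagonizes inhibitors of apoptosis, rose by 1.365 in parental cells (adjusted p = 1.65e-05) and by 1.17 in ρ0 cells (adjusted p = 0.000172).

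Of 13 transcription factors known as regulators of these receptors, 9 were higher and 2 lower in parental cells (median 1.17, background 30.4% and 35.5%), and 9 and 3 in ρ0 cells (median 0.45, background 19.2% and 22.1%). ATF4, the effector of the amino acid response, rose by 1.75 in parental (SE 0.145, adjusted p = 4.68e-05) and by 0.89 in ρ0 cells (SE 0.143, adjusted p = 0.00254). DDIT3 (CHOP), a factor known to induce TNFRSF10B, rose from 12.4 to 29.8 CPM in parental and from 25.1 to 91.1 CPM in ρ0 cells. Its log2 changes were 1.27 and 1.86 (adjusted p = 0.000825 and 0.00045). The difference of 0.59 missed the threshold (SE 0.268, adjusted p = 0.12), and it was 0.31 or 0.94 without ρ0 control replicate 1 or 2. For ATF4 the difference was -0.85 (adjusted p = 0.0136), or -1.07 and -0.59 without these libraries. A link between DDIT3 and TNFRSF10B was not tested. ATF3 rose by 4.22 and 2.02 (adjusted p = 9e-06 and 0.000305) and MYC by 2.409 and 1.997 (adjusted p = 1.71e-05 and 0.000182). The difference for ATF3 was -2.20 (adjusted p = 0.00111), or -2.49 and -1.84 without ρ0 control replicate 1 and 2. Among the 13 factors, 2 had a difference called higher in ρ0 cells and 7 lower. Over all tested genes these shares were 21.6% and 18.8%. TP73, at 0.11 to 0.13 CPM in the parental groups, went from 11.6 to 1.52 CPM in ρ0 cells, a log2 change of -2.93 (adjusted p = 0.000722). IRF1, an interferon-induced factor named after its values were seen, had 11.9, 33.2, 105 and 154 CPM in parental control, parental starved, ρ0 control and ρ0 starved cells. It was higher in ρ0 control than in parental control cells by 3.15 (adjusted p = 1.82e-06). A link between IRF1 and TNFSF10 was not tested.

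Without a library, most calls of these named genes held. In ρ0 cells, the log2 changes of the stress and growth factors were smaller without ρ0 control replicate 1 than without replicate 2: ATF4 0.68 and 1.15, DDIT3 1.58 and 2.21, ATF3 1.73 and 2.38, MYC 1.77 and 2.27. TNFAIP3 was at 0.81 and 1.33, BIRC5 at -1.51 and -1.88, TNFRSF21 at -0.77 and -1.09, TNFRSF1A at -0.39 and -0.61, TNFRSF11B at -0.66 and -1.005, and CASP6 at -0.64 and -1.20. TP73 was at -3.32 and -2.37, CASP2 at -1.21 and -0.95, MLKL at -0.81 and -0.68, TRAF1 at 0.59 and 0.71, HTRA2 at 1.21 and 1.13, and BIRC3 at 0.85 and 0.74. The difference between the responses of BIRC3 was 2.92 and 2.81, and the control line difference of IRF1 was 2.98 and 3.30. CASP10 in ρ0 cells was at -0.39 and -1.11, and its call was lost without any of the other 6 libraries (adjusted p up to 0.162). Calls were also lost for TNFRSF11B in ρ0 cells without either ρ0 starved library (adjusted p up to 0.0637), for CASP6 in ρ0 cells without ρ0 starved replicate 2 (adjusted p = 0.0554), and in parental cells for TNF without any parental library (adjusted p up to 0.133). LTA lost its call in parental cells without either parental control, either ρ0 starved or the second parental starved library, and without the last it was at 0.49 (adjusted p = 0.305).

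**Figure D5:**
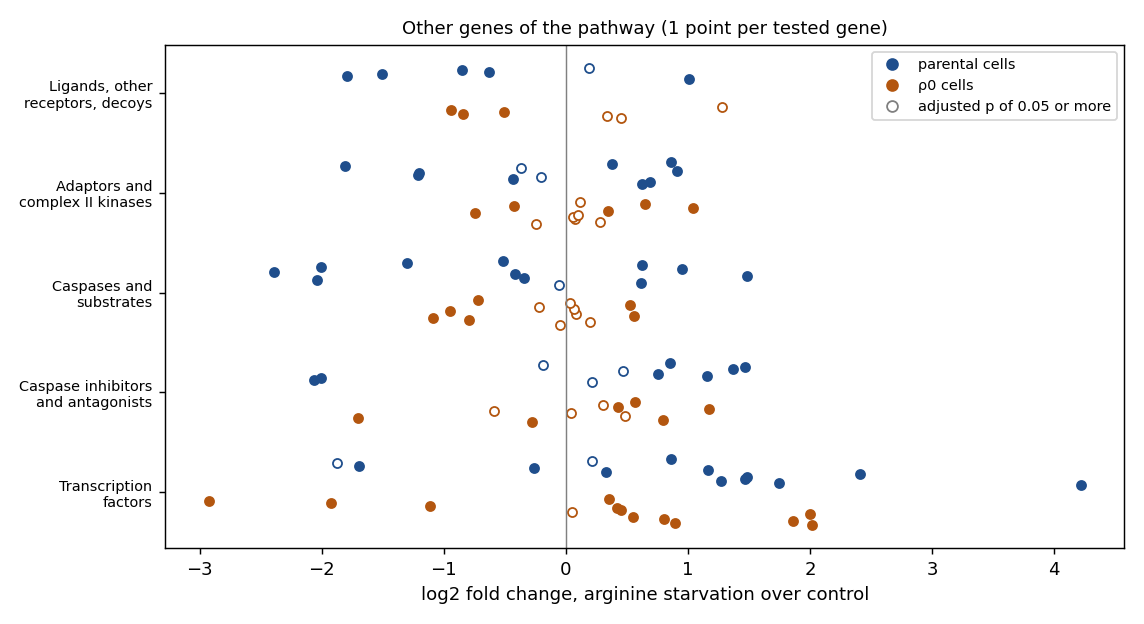
Log2 fold change on arginine starvation of the 52 tested genes of the 5 pathway lists, 1 point per gene and line, filled where the adjusted p was under 0.05. The transcription factors lie mostly to the right in both lines, and the values run from -2.93 (TP73 in ρ0 cells) to 4.22 (ATF3 in parental cells).

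The genes whose log2 CPM followed TNFRSF10B most closely over the 8 libraries, among 9950 genes with a mean of at least 10 CPM, were CLK4, TBC1D9, CNOT6L, SNX25 and FBXO11, with Pearson r from 0.982 to 0.995. Their range between groups was narrow: CLK4 had 27.0, 33.2, 21.0 and 35.8 CPM in parental control, parental starved, ρ0 control and ρ0 starved cells. Those closest to TNFSF10 were PPL, HSPB1, TP73-AS1, MTMR14 and RIPK4, with r from 0.992 to 0.997. PPL, which encodes the desmosome protein periplakin, had 0.353 and 0.401 CPM in the parental groups and 98.7 and 81.0 CPM in the ρ0 groups, so that a likeness to TNFSF10 is mainly the step between the lines. The 8 points come from 4 pairs and share the line and the treatment, and these correlations are a description.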

How the data were processed

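RNA-seq libraries of parental and ρ0 MDA-MB-231 cells were analysed. The authors deposited 1 table with the raw count of reads for each gene symbol, neither normalized nor placed on the genome. Processing notes of the submitters name Bowtie, Partek and hg19, without their roles, and the annotation, the counter and the strand setting are not given in the sources used here. A gene's counts therefore include whatever overlapping genes the counter assigned to it. The members and gene lists were chosen with earlier results of these data known.

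Tests were run with edgeR 4.0.16 (R 4.3.3). Genes were kept by filterByExpr on the 4 groups, scaled by TMM and tested by quasi-likelihood with 1 mean per group over all 8 libraries (4 residual and 3.4 prior degrees of freedom, biological coefficient of variation 12.4%). Tests were two-sided, with Benjamini-Hochberg adjustment over 15262 genes. DEGs followed the study's criterion. Standard errors are the log2 fold change over the square root of F. All 9 members are named. In each list and line, the 3 called genes with the largest absolute change are named, with ATF4 and DDIT3 always, and IRF1 was added after its values were seen. Some genes that the rule or the lists hold are not reported here by name. Against a group whose libraries all had at most 3 counts, ratios of summed counts are given with exact binomial intervals (95%), which cover counting error only. Counts were low for TNFRSF10C, FAS and, in parental cells, TNFSF10.

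Alternatives were other scalings and filters, DESeq2 1.42.0, limma-voom (limma 3.58.1) with and without group weights, the replicate block, fits to the compared libraries alone, and leaving out each library, which was added for the other pathway genes after seeing the data. Steps were tested on simulated data. Windows of RefSeq (GRCh38.p14) and lengths of GENCODE v29 were matched by symbol. Chromosome positions of other members were not used here.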

Additional observations from a re-analysis of the deposited data

Results flagged for a closer look

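The responses of TNFRSF10A and TNFRSF10B to starvation differed between parental and ρ0 cells by the interaction test of edgeR. TNFRSF10A rose less in ρ0 cells, with a difference of -0.72 on the log2 scale (adjusted p = 0.0177), and TNFRSF10B rose more, with a difference of 0.75 (adjusted p = 0.0306). Without ρ0 control replicate 1 these values were -0.91 and 1.04, and without replicate 2 they were -0.50 and 0.50. A ρ0 control group left with 1 library takes its spread from the other groups, so no p-value is given for these fits. Neither passed without any of the 6 other libraries (adjusted p from 0.0561 to 0.101). Both share the ρ0 control pair, in which replicate 2 had more TNFRSF10A (50.1 against 37.8 CPM) and less TNFRSF10B (197 against 285 CPM) than replicate 1.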

How the results depend on the processing

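The number of the 9 genes past the test moved with the estimate of the spread. When a library was left out, the share of all tested genes called on starvation, and for the difference between responses, moved in the same direction. These shifts are therefore no result about the 9 genes. In parental cells it was 4, but 7 with group weights in limma-voom or with the parental libraries alone, and 2 to 7 without 1 library: 2 without either parental control, 7 without either ρ0 control. In ρ0 cells it was 4, but 2 with group weights, and 2 to 7 without 1 library: 2 without either ρ0 starved, 7 without either ρ0 control. For the difference between responses it was 2, and 0 to 6 without 1 library: 6 and 4 without ρ0 control replicate 1 and 2, and 0 without any other. Between the lines in control medium it was 7, and 4 by the DEG criterion. A group left with 1 library is assumed to vary like the others, and leaving out a ρ0 control library removes the pair with the widest spread. Calls that miss the threshold when a library is left out are fitted with fewer degrees of freedom.

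Changes of sign were these. On starvation of parental cells CFLAR was at -0.0129 with total counts as scaling, a scaling that moved the median of all genes by -0.16 there (upper quartile by -0.12). In ρ0 cells CASP8 was at -0.0354 with total counts. Without ρ0 control replicate 1 and replicate 2, respectively, CASP8 was at 0.152 and -0.0627, TNFRSF10D at -0.26 and 0.79, and TNFSF10 at 0.48 and -0.98. For the difference, FAS was at -0.02 without parental starved replicate 2, and without ρ0 control replicate 1 and replicate 2 FAS was at 0.82 and -0.25 and CFLAR at 0.237 and -0.0365. In control medium TNFRSF10C was at -0.0440 with limma-voom, -0.0476 with group weights, and -0.75 and 0.67 without ρ0 control replicate 1 and replicate 2. The cause was not tested. Of the other values of single genes under an alternative, 662 kept their direction and side of the threshold, 43 dropped below it and 42 rose past it.

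With counts undivided by length, the signalling receptors took 61.8%, 53.0%, 85.4% and 92.4% in parental control, parental starved, ρ0 control and ρ0 starved cells, and with the longest transcript, chosen after seeing the data, 58.7%, 51.2%, 84.4% and 91.9%. CFLAR per CASP8 in the 4 groups was 1.34, 1.67, 2.05 and 2.37 undivided, and 0.267, 0.333, 0.410 and 0.473 with the longest transcript. Libraries with the same replicate number shared only that number (correlation of deviations -0.0419 to 0.0229). With the replicate block 4, 4, 2, 7 and 6 of the 9 genes passed in the 5 comparisons, as without it, and no call changed.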
